A study of Mus musculus with 12 samples.

Results

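Stat3 ChIP-seq summits were examined at 8 genes that control the release of paused RNA polymerase II: Rn7sk, Hexim1 and Larp7 of the 7SK particle, Cdk9 and Ccnt1 of the kinase P-TEFb, and Ell, Ell2 and Aff4 of the super elongation complex. They are 8 of 55450 annotated genes and were chosen by the readout itself, since Rn7sk and Ell carry some of the highest-scoring summits after LIF. The scores and ranks of those summits are therefore given as a description, with no test. In LIF-treated cells a summit lay inside the Rn7sk gene, 0.201 kb from its start, and another in the first intron of Ell, 25.2 kb from a start site. No summit of the 4 other conditions, whose libraries were shallower per the study's text, lay within 50 kb of either gene. Of the remaining 6 genes, only Larp7 had a summit within 50 kb, in wholly repeat-masked sequence in peroxide-treated -/-C3S cells. Across all annotated genes, 5.53% had a summit within that distance after LIF and 0.449 to 1.37% in each of the other conditions.

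RNA polymerase II often stops shortly after it has begun to transcribe a gene. P-TEFb, made of the kinase Cdk9 and cyclin T1 (Ccnt1), phosphorylates the polymerase and the factors that hold it, and elongation resumes. Much of the P-TEFb in a cell is kept inactive by the 7SK particle, in which the short non-coding 7SK RNA (Rn7sk), made by RNA polymerase III, binds the inhibitor Hexim1 and is stabilised by Larp7. P-TEFb that is set free can join the super elongation complex, whose scaffold is Aff4 and whose elongation factors include Ell and Ell2. Stat3 is a transcription factor that cytokines such as LIF activate by tyrosine phosphorylation, and its dimers bind a palindrome known as the Stat3 inducible element (SIE).

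The cells were mouse embryonic fibroblasts (MEFs) from Stat3 fl/fl embryos in which Cre, delivered with a retroviral MSCV vector and followed by Thy1.1, had removed endogenous Stat3. A further MSCV vector with GFP then restored Stat3, either wild type (-/-WT) or with cysteines of the DNA-binding domain substituted (-/-C3S), so that Stat3 came from a viral promoter in sorted polyclonal lines. All cells were kept overnight in 0.5% serum. Chromatin was precipitated with a Stat3 antibody from 5 conditions, each with 2 replicates. The -/-WT cells were left untreated (basal), given LIF (10 ng/ml, 45 min) or given peroxide (1 h), and the -/-C3S cells were left untreated or given peroxide (1 h). The labels give the peroxide dose as 100 mM, whereas the published methods give it in µM. The -/-C3S cells have no LIF condition, so a LIF summit cannot be compared between the genotypes. The 2 control libraries of the series, input DNA and IgG from -/-WT cells, were not analysed here.

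Each condition is represented by 1 list of summits, the positions of highest signal within called peaks, made from both replicates together. No value therefore has a replicate error, and differences between lists were not tested. The -/-WT lists held 230 summits without treatment, 1088 after LIF and 450 after peroxide, and the -/-C3S lists 145 without treatment and 223 after peroxide. Longer lists come closer to any gene. The lists carry no read depth, but the study's text states that the LIF libraries were sequenced to a greater depth than the others. Depth and LIF treatment thus cannot be told apart wherever the LIF list is set beside another, and a position without a summit in another list may hold signal that was not detectable at its lower depth. The lists also differed in the sequence under their summits. In windows of 161 bp centred on the summit, 4 of 1088 LIF windows (0.368%) were wholly repeat-masked, against 91 to 98.9% in the 4 other lists. The part of repeats in the results at the 8 genes was not tested.

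The sequences below are the windows of 3 of the 4 summits within 50 kb of the 8 genes, taken from GRCm38.p6, which shares its coordinates with mm10, and written 5′ to 3′ on the strand of the gene. They are shown because summits were called on them near the 8 genes, which alone does not establish Stat3 binding at each. The paper regards the intergenic peaks of untreated cells as more probably background. It describes the peaks of peroxide-treated cells, -/-C3S included, as nearly the same as those of untreated cells. In -/-WT cells it also reports basal binding at known targets such as Stat3, which was lower after peroxide. Capitals mark matches to the consensus SIE, TTCCNGGAA, with at most 1 mismatch. The first window lies within the Rn7sk gene at chr9:78175352-78175512, minus strand. The second lies in the first intron of Ell at chr8:70564848-70565008, plus strand. The last lies beyond the 3′ end of Larp7 at chr3:127522637-127522797, minus strand, and holds no match. The window of the fourth summit, upstream of Ell, lies in a UTR of another gene and is not printed.
Rn7sk: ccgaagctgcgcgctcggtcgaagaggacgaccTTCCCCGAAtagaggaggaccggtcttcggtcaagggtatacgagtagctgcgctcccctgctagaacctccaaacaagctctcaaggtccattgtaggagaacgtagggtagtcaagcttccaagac
Ell: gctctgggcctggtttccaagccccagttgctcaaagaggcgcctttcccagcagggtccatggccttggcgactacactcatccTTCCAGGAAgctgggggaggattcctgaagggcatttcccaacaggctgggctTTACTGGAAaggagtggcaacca
Larp7: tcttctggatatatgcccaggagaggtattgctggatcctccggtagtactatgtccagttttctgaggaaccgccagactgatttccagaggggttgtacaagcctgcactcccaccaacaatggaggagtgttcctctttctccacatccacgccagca

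Rn7sk (ENSMUSG00000065037.1) is annotated as 1 transcript of 331 bp on chromosome 9, from 78175303 to 78175633, read from the minus strand. In LIF-treated cells the summit, 78175432, lay in its only exon, 201 bp downstream of the start. Its score of 115 was the third highest of the list, rank 3 of 1088. The neighbours in rank were a summit in a UTR of Osmr, a receptor subunit for oncostatin M, at rank 2 with a score of 136, and a summit in an intron of Sbno2 at rank 4 with a score of 107. Across all annotated genes, 0.665% had a LIF summit within 1 kb of a start site. The long non-coding RNA gene C920006O11Rik starts on the opposite strand 482 bp from the same summit, so the position alone does not assign the summit to Rn7sk. The nearest protein-coding start sites were those of Gsta4, a glutathione S-transferase, at 7.34 kb and of the kinase gene Ick at 20.1 kb.

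In the other lists the nearest summit to Rn7sk lay 2.49 Mb away in -/-WT basal, -/-WT peroxide and -/-C3S basal cells and 3.08 Mb away in -/-C3S peroxide cells. The summits of the first 3 lists lay within 30 bp of each other, all in wholly repeat-masked sequence 45.7 to 45.8 kb from Gm39380. The gene with the third-ranked LIF summit thus had nothing called near it in the shallower libraries without LIF, in either genotype.

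The Rn7sk window held no consensus SIE. Its closest match was TTCCCCGAA at 78175471 to 78175479, with 1 mismatch and its centre 43 bp from the summit, within the transcribed sequence. Windows with such a match were common in the LIF list: 725 of 1088, or 66.6% (95% exact binomial interval 63.7 to 69.4), against 8.53% of 26458 windows placed every 100 kb along the genome. The evenly placed windows, here and below, were not matched to the LIF windows in composition. Their median GC content was 41.6% against 50.9%, and 13.4% against 0.368% were wholly masked. The part of composition in the motif shares was not tested. The shorter core TTCNNNGAA, which the Rn7sk site also matches, was in 40.7% of LIF windows and 6.09% of the evenly placed windows. A consensus SIE was found 2.75 kb from the Rn7sk summit, TTCCTGGAA at 78172683 to 78172691, and no LIF summit lay within 80 bp of it. The window held no AP-1 site (TGANTCA), a motif found in 23.2% of LIF windows and 4.69% of the evenly placed ones. GC content was 56.5%, above that of 68.8% of LIF windows.

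The mouse genome holds incomplete copies of Rn7sk, to which short reads could also map. At 95% identity or more over at least 60% of the window, 5 copies of the Rn7sk window were found elsewhere. They aligned over 108 to 123 bp at 96.7 to 100% identity, and 4 of the 5 also hold TTCCCCGAA. No copy reached 95% identity over 90% of the window. The copy nearest to a LIF summit was 400.1 kb from it. Of 33 copies of the whole gene with at least 80% identity over 60% of its length, 0 had a summit within 500 bp in any of the 5 lists. Copies were rare in the LIF list, with 17 of 1088 windows (1.56%) having at least 1, and the Rn7sk window was the only one of the top 10. The study's text speaks of unique reads, without saying whether these were reads with 1 position in the genome or reads left after removal of duplicates, and the part of the copies in the score was not tested.

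Rn7sk is a short and very abundant RNA. It was set beside genes of non-coding RNA types, taken by annotation whatever their abundance, and beside a list of named short RNAs. The abundance of the listed RNAs was not measured, so they are not a set matched to Rn7sk. Of 3879 genes annotated as snRNA, snoRNA, scaRNA, rRNA, ribozyme or misc_RNA, 3 had a start site within 1 kb of a LIF summit. Across all annotated genes the share within that distance was 0.665%. Rn7sk was the only one of the 3 to contain the summit, but it was chosen for that summit, so nothing is read from this. The others were Gm27782, a misc_RNA gene in an intron of Pvt1, 890 bp from a summit of rank 29, and the snoRNA gene Gm22341, 471 bp from a summit of rank 901. Of 20 listed names of short RNAs, 15 were found in the annotation and 0 had a LIF summit within 1 kb. The nearest were Rn7s2, a 7SL RNA gene of the signal recognition particle, at 10.3 kb and Rnu12, a minor spliceosomal RNA gene, at 66.3 kb. Rmrp and Rpph1, the RNA components of RNase MRP and RNase P, are also transcribed by RNA polymerase III and lay 674 and 3440 kb from a LIF summit.

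Ell (ENSMUSG00000070002.7) spans chromosome 8 from 70539457 to 70592858 on the plus strand and has 2 annotated transcripts. The LIF summit at 70564928 had a score of 63.4, rank 6 of 1088. It lay in intron 1 of 11 of the longer transcript, an intron of 33 kb, at 25.1 kb from the start of that intron, and in intron 1 of 4 of the other. Ell was the gene with the nearest start site. The neighbours in rank were summits beside Junb, an AP-1 subunit, at rank 5 with a score of 88.5 and in a UTR of Csf1, the macrophage growth factor, at rank 7 with a score of 62.2. Both of these lay within 0.049 kb of a start site, against 25.2 kb at Ell. Other protein-coding genes within 50 kb of it were Isyna1 at 29.4 kb, Fkbp8 at 30.8 kb, Ssbp4 at 33 kb and Kxd1 at 37 kb.

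The intronic Ell window held a consensus SIE, TTCCAGGAA at 70564933 to 70564941, with its centre 9 bp from the summit. A further site with 1 mismatch, TTACTGGAA, lay at 70564986 to 70564994, 62 bp from the summit. A consensus SIE was present in 166 of 1088 LIF windows (15.3%, 13.2 to 17.5) and in 0.397% of the evenly placed windows. Its centre was within 10 bp of the summit in 43 LIF windows (3.95%). The window held no AP-1 site, and BLAST found no copy of it at 80% identity over 60% of its length. The SIE lies within the 21 bases of the window that are repeat-masked (13%).

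The same 9 bases, TTCCAGGAA, occur once more in the first intron of Ell, 12.1 kb from a start site, and no summit of any list lay within 13.1 kb of them. Ell therefore holds the same consensus site with and without a called LIF summit. The sites are printed with 10 bases on either side, the consensus in capitals, first the site at chr8:70564923-70564951 with the summit and then the site at chr8:70551785-70551813 without one, both plus strand.
Ell, summit: acactcatccTTCCAGGAAgctgggggag
Ell, no summit: ctgcctcatgTTCCAGGAAaatgtgcttg

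A further LIF summit lay 35.1 kb upstream of Ell at 70504382, with a score of 26 and rank 96 of 1088. It fell in a UTR of Rex1bd, whose start site was nearest at 1.73 kb. The window held neither an SIE with up to 1 mismatch nor an AP-1 site, and its GC content of 64% exceeded that of 87.4% of LIF windows. The nearest summits to Ell in the other lists were 532 kb away in -/-WT basal and -/-WT peroxide cells, 1.86 Mb away in -/-C3S basal cells and 5.23 Mb away in -/-C3S peroxide cells. All 4 lay in wholly masked sequence.

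**Figure D1:**
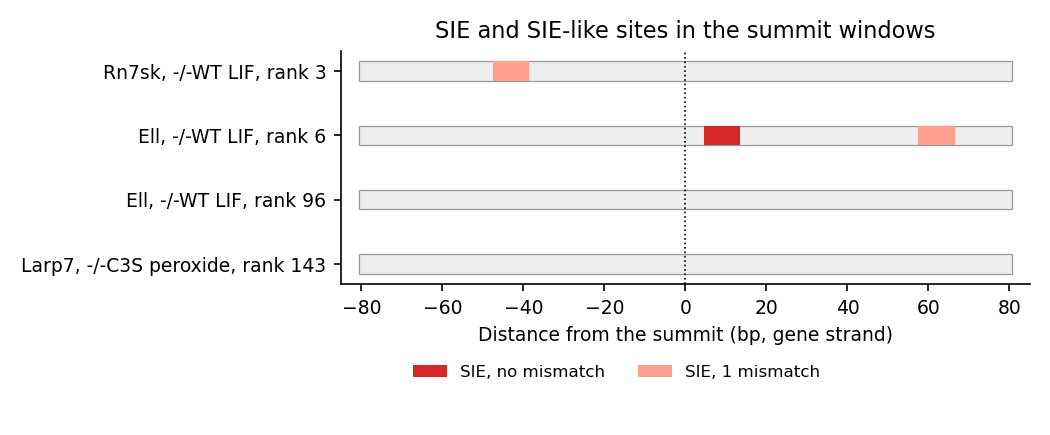
Positions of SIE sites in the 161 bp windows of the 4 summits within 50 kb of the 8 genes, with the distance from the summit in bp on the strand of the gene. The consensus site of the intronic Ell summit is centred 9 bp from it, the site with 1 mismatch at Rn7sk 43 bp from it, and the windows of the Ell summit of rank 96 and of Larp7 hold neither.

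**Figure D2:**
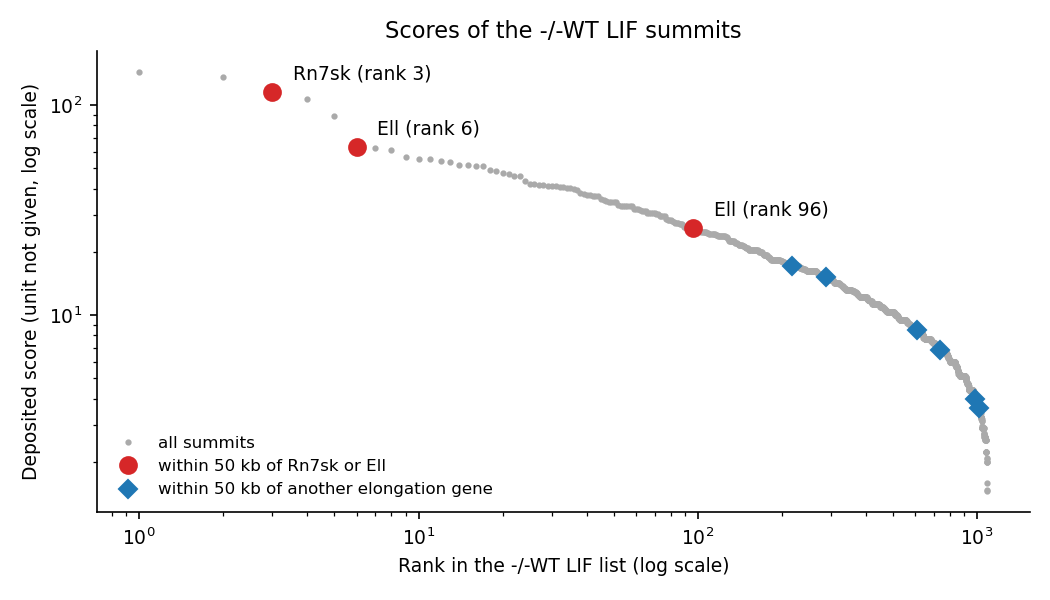
Deposited score of each of the 1088 LIF summits against its rank, both on log scales (grey). Summits within 50 kb of Rn7sk or Ell are red and have ranks 3, 6 and 96, and the 6 summits within 50 kb of other elongation genes are blue and have ranks from 218 to 1018. Rn7sk and Ell were chosen for top-ranked summits, so nothing is read from the contrast.

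The genes of the 7SK particle other than Rn7sk had no LIF summit nearby. Hexim1 (chromosome 11, 103116231 to 103119725, plus strand), the protein inhibitor of P-TEFb, was 176 kb from the nearest LIF summit, which had rank 632. In -/-WT basal and -/-WT peroxide cells its nearest summits lay 2.18 Mb away. Both were at the start of Stat3 itself, 0.218 and 0.246 kb from it and 28 bp from each other, in windows with 13% masked bases and a 1-mismatch SIE. In -/-C3S basal and -/-C3S peroxide cells the distances were 8.34 and 29.4 Mb.

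Larp7 (chromosome 3, 127536714 to 127553349, minus strand), which protects the 7SK RNA, had the only summit of a condition without LIF within 50 kb of any of the 8 genes. It was in the -/-C3S peroxide list at 127522717, 24.8 kb from the closest of 4 start sites and 14 kb beyond the 3′ end of the gene. Its score of 9.44 put it at rank 143 of 223, among the lower-scoring part of the list. The position is intergenic, and start sites of other genes were nearer than those of Larp7. They included those of the pseudogene Gm43354 at 9.82 kb, the microRNA gene Mir302b at 22.5 kb and the protein-coding gene Ank2 at 23.4 kb. All 161 bases of the window are repeat-masked, and it had 18569 copies elsewhere in the genome at 95% identity over 60% of its length. It held no SIE with up to 1 mismatch, a match present in 6.73% of the windows of that list, and no AP-1 site. Larp7 lay 854 kb from a LIF summit, 11.8 Mb from a -/-WT basal summit, 6.28 Mb from a -/-WT peroxide summit and 7.66 Mb from a -/-C3S basal summit.

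The genes of P-TEFb had no summit within 50 kb in any list. Cdk9 (chromosome 2, 32705784 to 32713076, minus strand), the kinase, was the gene just outside the distance limit, with a LIF summit at 80.9 kb. That summit had a score of 2.91 and rank 1048 of 1088 and lay in an intron of the adenylate kinase gene Ak1, 0.458 kb from its start. Just inside the limit were the upstream Ell summit at 35.1 kb, the intronic Ell summit at 25.2 kb and the Larp7 summit at 24.8 kb. Ccnt1 (chromosome 15, 98538689 to 98570923, minus strand), the cyclin, was 121 kb from a LIF summit of rank 649. In the other lists the nearest summits lay 3.73 to 25.3 Mb from Cdk9 and 6.78 to 33 Mb from Ccnt1.

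Ell2 and Aff4, which belong to the super elongation complex as Ell does, also lacked a summit within 50 kb. Ell2 (chromosome 13, 75706757 to 75772364, plus strand), a paralogue of Ell, was 0.77 Mb from a LIF summit of rank 211 in an intron of Mctp1. Only for Ell2 and Larp7 did the list of another condition come closer than the LIF list. At Ell2 these were a -/-C3S basal summit at 317 kb and a -/-C3S peroxide summit at 445 kb, both in wholly masked sequence. Aff4 (chromosome 11, 53350833 to 53421830, plus strand), the scaffold, was 352 kb from a LIF summit of rank 280 that held a consensus SIE. Its nearest summits in the other lists were 2.82 Mb away in both -/-WT lists and 4.63 Mb away in both -/-C3S lists.

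**Figure D3:**
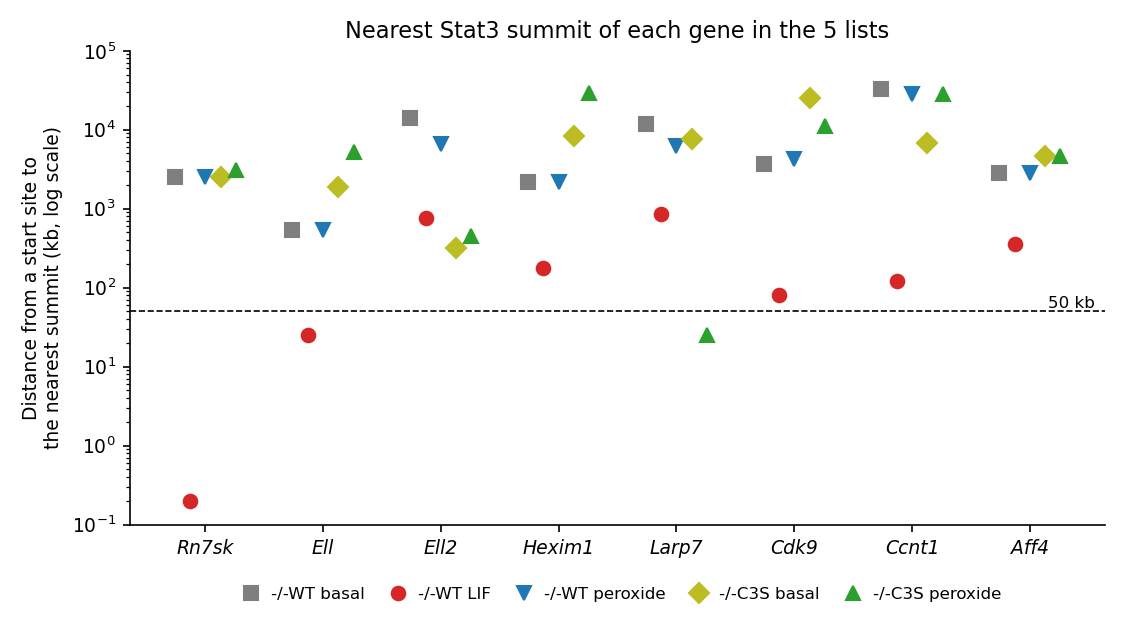
Distance from a start site of each of the 8 genes to the nearest summit of each list, in kb on a log scale, with the limit of 50 kb dashed. LIF distances run from 0.201 kb at Rn7sk to 854 kb at Larp7, and 31 of the 32 distances in the other lists lie between 0.317 and 33 Mb, the exception being Larp7 in -/-C3S peroxide cells.

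With all 8 genes together, 2 had a LIF summit within 50 kb, where 5.53% of all annotated genes and 7.38% of protein-coding genes had one. As Rn7sk and Ell were chosen for it, nothing is read from that count. For -/-WT basal the count was 0 where 0.674% of all genes had a summit, for -/-WT peroxide 0 where 1.37% did, and for -/-C3S basal 0 where 0.449% did. For -/-C3S peroxide it was 1, Larp7, where 0.653% of all genes and 0.574% of protein-coding genes did. Nothing is read from counts of 0 among 8 genes beside shares of this size. The median distance to the nearest LIF summit, 149 kb for the 8 genes, includes Rn7sk and Ell and is likewise fixed in part by the choice. The 6 other genes lay 80.9 to 854 kb from one, and the medians were 592 kb for the 50 other genes of a wider list of elongation genes and 805 kb for protein-coding genes. In the other lists the medians for the 8 genes were 3.27 Mb (-/-WT basal), 3.54 Mb (-/-WT peroxide), 5.71 Mb (-/-C3S basal) and 4.93 Mb (-/-C3S peroxide), beside 5.21, 2.79, 7.12 and 5.24 Mb for protein-coding genes. Of the 32 nearest summits in the lists other than LIF, 28 lay in wholly masked windows.

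Consensus SIEs were present around all 8 genes whether or not a summit was called. Within 50 kb of a start site there were 2 at Rn7sk, 2 at Ell, 3 at Ell2, 2 at Hexim1, 4 at Larp7, 7 at Cdk9, 7 at Ccnt1 and 4 at Aff4. The spans searched differed, from 100 kb at Rn7sk to 160 kb at Aff4. Per 100 kb there were from 1.93 sites at Ell2 to 6.77 at Cdk9. No such count was made around other genes, so nothing particular to the 8 is read from the presence of sites. Of these 31 sites, only the Ell site printed above had a LIF summit within 80 bp. Ell was chosen for that summit, so nothing is read from this count. Across chromosomes 1 to 19, X and Y, 174 of 69398 consensus sites (0.251%) had one, so that a site without a summit was the usual case. In the promoter, from 5 kb upstream to 0.5 kb downstream of a start site, Ccnt1 was the only one of the 8 genes with a consensus SIE, where 25.9% of protein-coding genes had one. The Ccnt1 site at 98570878 to 98570886 lies 0.041 kb downstream of a start, in a UTR, and no summit of any list came within 121 kb of it. It and the sites inside other genes of the group without a summit are printed with 10 bases on either side on the strand of the gene. They lie at chr15:98570868-98570896 (Ccnt1, minus strand), chr13:75740098-75740126 (an intron of Ell2, plus strand), chr2:32706117-32706145 (an exon of Cdk9, minus strand) and chr11:53414306-53414334 (an intron of Aff4, plus strand).
Ccnt1: agctaaataaTTCCAGGAAgcttgaggta
Ell2: cctctttcctTTCCTGGAAatagccagct
Cdk9: cctccgcagcTTCCTGGAAgtcactgtgt
Aff4: ccgcctgtaaTTCCAGGAAttgggagcag
Ccnt1 and Aff4 carry the same 9 bases as Ell, and Ell2 and Cdk9 carry TTCCTGGAA. The nearest summit of any list was 77.3 kb from the Cdk9 site, 121 kb from the Ccnt1 site, 339 kb from the Ell2 site and 349 kb from the Aff4 site.

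**Figure D4:**
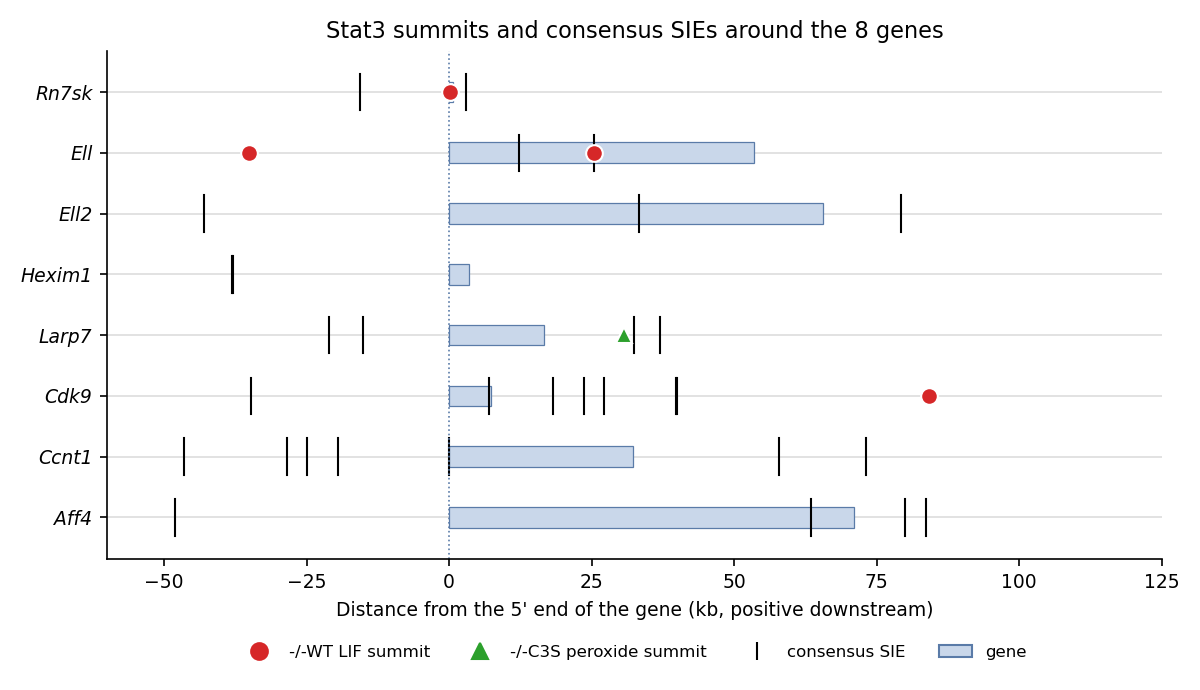
Map of the 8 genes drawn from the 5′ end of each, in kb and positive downstream, with consensus SIEs within 50 kb of any start site of the gene as black ticks and summits of any list within 120 kb of the 5′ end as symbols. Only the intronic Ell summit coincides with a tick, and the LIF summit at Cdk9 lies beyond 50 kb.

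A wider list of 58 elongation genes, all found in the annotation, places the 8 in their pathway. Of these, 9 (15.5%) had a LIF summit within 50 kb, or 7 of 50 (14%) without the 8 genes, where 7.38% of protein-coding genes did. The 7 genes shared 6 summits of ranks 218 to 1018. The 3 summits at Rn7sk and Ell scored higher, but these genes were chosen for top-ranked summits, so nothing is read from that. For only 1 of the 7, Brd2, was the listed gene the one with the nearest start. By complex, the 9 genes were 1 of 5 of the 7SK particle (Rn7sk), 2 of 9 of the super elongation complex (Ell and Mllt3), 1 of 6 recruiters and release factors (Brd2), 1 of 3 of the little elongation complex (Zc3h8), 1 of 2 of DSIF (Supt5), 1 of 4 of NELF (Nelfe), 1 of 6 of the PAF1 complex (Paf1) and 1 of 6 other polymerase kinase genes (Cdk13). The remaining groups of the list had none: P-TEFb (3 genes), other AFF genes (2), Supt6 and Iws1 (2), FACT (2), TFIIS (3), Elongin (3) and Integrator (2).

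Brd2, a bromodomain protein that reads acetylated histones, had its LIF summit at chromosome 17, 34121261, in its own UTR and 0.35 kb from a start, with rank 218. The window held a 1-mismatch SIE and an AP-1 site centred 15 bp from the summit. Mllt3, a YEATS-domain subunit of the super elongation complex, had one 2.39 kb upstream with rank 1018, in a window with a 1-mismatch SIE. Nelfe, a subunit of the pausing factor NELF, lay 13.5 kb from a summit of rank 609 in an exon of Stk19, whose start was 0.017 kb away, with a consensus SIE. Supt5 of DSIF, at 42.5 kb, and Paf1, at 11.7 kb, shared a summit of rank 287 that lay 0.987 kb from Zfp36, an mRNA decay factor gene, with a consensus SIE 14 bp from the summit and an AP-1 site. Zc3h8 lay 40.2 kb from a summit of rank 984 with a consensus SIE, and Cdk13 lay 34.1 kb from a summit of rank 735 with no SIE of up to 1 mismatch.

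In the other lists, Cdc73 of the PAF1 complex had a summit 8.83 kb away in -/-WT peroxide cells (rank 82 of 450) and 8.82 kb away in -/-C3S basal cells (rank 31 of 145). Iws1, a partner of the histone chaperone Supt6, had summits 22.2 kb away in -/-WT basal cells (rank 151 of 230) and -/-WT peroxide cells (rank 202 of 450). The windows of all 4 were wholly repeat-masked and held no SIE with up to 1 mismatch.

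**Figure D5:**
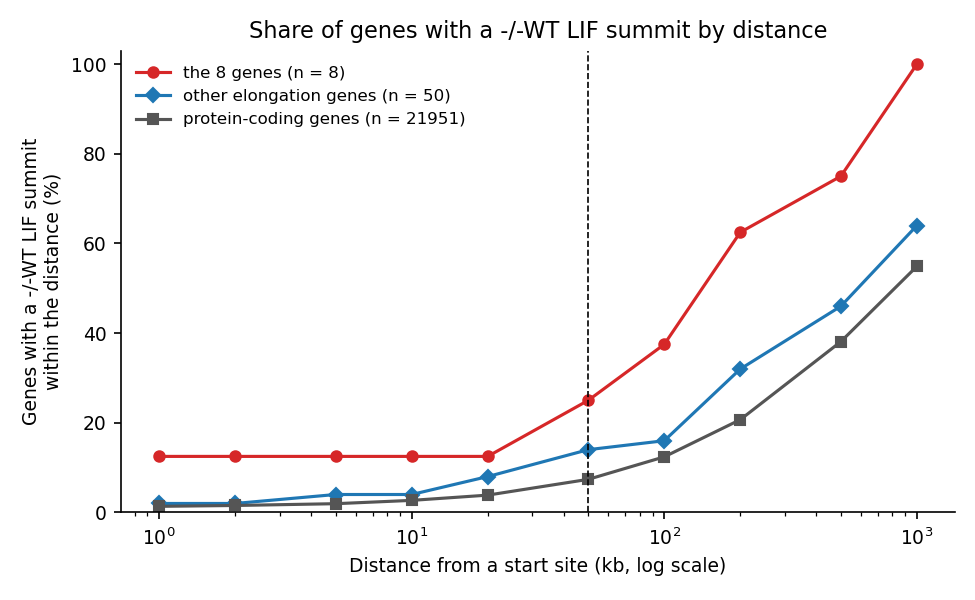
Percentage of genes with a LIF summit within a given distance of a start site, in kb on a log scale, for the 8 genes, for the other 50 elongation genes of the wider list and for 21951 protein-coding genes, with 50 kb dashed. At 50 kb the shares are 25, 14 and 7.38%, and the first includes Rn7sk and Ell, which were chosen for their summits.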

How the data were processed

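The authors made 1 summit list per condition from both replicates and deposited a position and a score per summit. Their processing notes name HISAT2, Picard and MACS2, without roles or versions, and mm10. The study's text counts unique reads, which may mean uniquely mapped or de-duplicated, and gives a greater depth for the LIF libraries. The unit of the score is not given in the sources used here, so scores served only for ranks within a list. All summits fell within the chromosomes of GRCm38.p6.

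Summits were placed against every start site in GENCODE M21. The 8 genes, the wider list and all comparisons were chosen with earlier results of these data known. Named genes are the 8, wider-list genes with a summit within 50 kb, the gene nearest to each such summit, small RNA genes within 1 kb of a LIF summit and neighbours in rank. Some genes beside the upstream Ell summit are not reported here. Other genes beside these summits, the consensus sites around the genes, the evenly placed windows and copies of Rn7sk were added after the data were examined. Both strands of the 80 bp on either side of a summit were searched for motifs, and AP-1 and SIE sites could overlap. Repeat-masked bases are those in lower case in the reference. Shares carry exact Clopper-Pearson 95% intervals, which cover counting error only. The lists themselves hold no depth. Copies were counted with BLAST 2.17.0 (word size 11), other values with Python 3.11.15, pysam 0.24.0 and SciPy 1.17.1. On simulated data, 200 of 200 planted summits and 400 of 400 planted sites were recovered. Alternatives varied the distance, start sites, score, merging within 500 bp, motif and identity.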

Additional observations from a re-analysis of the deposited data

How the results depend on the processing

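At 5, 10 and 25 kb in place of 50 kb, 1 gene of the 8 (Rn7sk) had a LIF summit, since both Ell summits lie farther out. The Larp7 summit was lost at 5 and 10 kb, which left 0 genes with a summit of another condition. The wider list gave 3 genes with a LIF summit at 5 kb, 3 at 10 kb and 5 at 25 kb, where 1.18, 1.77 and 3.18% of all genes had one. These counts include Rn7sk, which was chosen for its summit. Without the 8 genes, 4% of the 50 others had one at 5 kb and 4% at 10 kb. For protein-coding genes the shares were 1.95% at 5 kb and 2.69% at 10 kb. These 2 shares were not taken at 25 kb. At 20 kb they were 8% for the 50 others and 3.86% for protein-coding genes. At 100 kb Cdk9 was added, for 3 of the 8 genes, and 9.63% of all genes had a LIF summit. Taking only the 5′ end of each gene, only scores at or above the median, merged summits, or only summits whose nearest start is that of the gene gave 2 of the 8 genes in each case. Merging left ranks 3, 6 and 96 as they were. Counting SIEs with 1 mismatch, or the core TTCNNNGAA, gave sites at 2 of the 3 LIF summits, and 2 mismatches in 1 arm gave sites at 3, a match that 32.8% of evenly placed windows also hold. Copies of the Rn7sk window numbered 9 at 90% identity and 0 when 90% of the window had to align. Of 32 alternatives, 15 gave a like value and 17 moved it. A like value was not always an equal one: at 100 kb, 3 genes against 2 and, for the wider list, 11 against 9 were counted as like. No paired analysis was possible because each condition has 1 pooled list, and for the same reason no replicate could be left out and no difference between conditions could be tested. The files give no read depth, and the libraries without LIF were the shallower ones per the study's text, so a gene without a summit may have signal below the threshold of the authors' calls.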
